A study of Mus musculus with 13 samples.

Results

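The 39 Hox genes were followed library by library in mammary tumors and mammary glands of MMTV-HER2/neu mice. They were all rows of the count table whose symbol was Hox, a cluster letter from a to d and a number, 39 of 24421 genes. Total RNA was sequenced from 13 libraries of female FVB/N mice that carry TgN (MMTV-HER2/neu) 202Mul/J, in which a mammary tumor virus promoter drives the HER2/neu oncogene mainly in mammary epithelium and tumors arise spontaneously. The genotype label read "Wild type" for every library, although the strain carries the transgene.

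Primary untreated tumors (n = 3) came from mice on plain water. Primary STV tumors (n = 3) came from mice that drank stavudine, a nucleoside inhibitor of reverse transcriptase, at 1 mg/mL. By the study's methods stavudine began at 2 months of age or at the appearance of the first tumor, which of these for each library not being given. The study's legends describe the primary STV tumors as having developed in mice on stavudine. Recurrent DMAG tumors (n = 3) had regrown after 17-DMAG, an inhibitor of the chaperone HSP90, injected at 20 mg/kg. The study's methods state that injections went on until regrown tumors were at their end point size. Recurrent DMAG+STV tumors (n = 2) had regrown after the same drug in mice on stavudine, and the mammary glands (n = 2) came from untreated mice. The age at collection was not given in the sources used here. Neither was the gland from which any tumor was taken, nor the body position of the mammary glands. Libraries are named below by group and replicate number, as untreated 1, STV 1, DMAG 1, DMAG+STV 1 and gland 1. Nothing in the labels said which libraries came from separate mice, so p-values measure the spread between these samples only.

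Hox genes encode homeodomain transcription factors that give cells their position along the body axis. They lie in 4 clusters, in which gene order along the chromosome follows the order of expression from head to tail, so that low paralog numbers mark anterior and high numbers posterior territory. Many adult cells, fibroblasts above all, keep the Hox code of the place where they formed, and mouse mammary glands run along the trunk from the neck to the groin. Hox proteins bind DNA with Pbx and Meis cofactors, and Polycomb proteins such as Ezh2 hold silent Hox genes in a closed state.

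In the mouse genome GRCm38 the HoxA cluster (11 genes) lay on chromosome 6, HoxB at chr11:96194316-96368256 (10 genes), HoxC at chr15:102921103-103036852 (9 genes) and HoxD at chr2:74668310-74765142 (9 genes), by the GENCODE annotation. Genes of paralog groups 1 to 4 are called anterior here, groups 5 to 8 central and groups 9 to 13 posterior. The 250 bases upstream of the annotated start are shown for the members with the highest level per kilobase in HoxB (Hoxb4) and HoxA (Hoxa5), and for the member with the largest difference between tumors and glands (Hoxd10). Sequences are from RefSeq on GRCm38.p6, 5′ to 3′ on the strand of the gene. Hoxb4 is at chr11:96318017-96318266 (plus strand), Hoxa5 at chr6:52204588-52204837 (minus strand) and Hoxd10 at chr2:74691641-74691890 (plus strand).
Hoxb4: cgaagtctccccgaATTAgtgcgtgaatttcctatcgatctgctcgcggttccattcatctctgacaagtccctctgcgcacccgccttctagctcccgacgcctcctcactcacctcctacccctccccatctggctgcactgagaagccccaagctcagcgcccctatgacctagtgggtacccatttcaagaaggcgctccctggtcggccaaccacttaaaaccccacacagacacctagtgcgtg
Hoxa5: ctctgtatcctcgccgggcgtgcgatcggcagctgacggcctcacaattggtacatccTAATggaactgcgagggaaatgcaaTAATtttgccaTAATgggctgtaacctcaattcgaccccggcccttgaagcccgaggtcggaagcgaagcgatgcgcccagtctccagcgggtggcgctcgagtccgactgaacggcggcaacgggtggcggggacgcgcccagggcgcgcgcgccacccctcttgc
Hoxd10: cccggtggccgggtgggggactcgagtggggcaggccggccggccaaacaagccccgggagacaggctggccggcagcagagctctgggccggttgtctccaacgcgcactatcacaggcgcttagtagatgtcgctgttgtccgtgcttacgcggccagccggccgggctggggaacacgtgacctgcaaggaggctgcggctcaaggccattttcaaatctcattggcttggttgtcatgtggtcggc
Capitals mark TAAT on either strand, the core that homeodomains bind. It was found 1 time upstream of Hoxb4, 3 times upstream of Hoxa5 and 0 times upstream of Hoxd10. Of 32851 promoter windows of this length, 54.9% held it, and 18 of the 24 Hox windows in the table, which covered 22 of the 39 genes. The Pbx and Hox site TGATTNAT was in 2.82% of all windows, the Meis site TGACAG in 15.9% and the Sp1 box GGGCGG in 32.7%, each searched on both strands, and none of these was in the 3 windows shown. TGATTNAT can overlap TAAT.

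The Hox clusters also hold miRNA genes, whose mature forms are known to target Hox messages. Their sequences (RefSeq, GRCm38.p6) are shown with the seed, bases 2 to 8, in capitals, because the seed splits them into a pair of families.
miR-10a-5p: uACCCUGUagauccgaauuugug
miR-10b-5p: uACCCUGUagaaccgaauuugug
miR-196a-5p: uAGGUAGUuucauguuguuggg
miR-196b-5p: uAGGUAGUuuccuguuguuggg
The first pair share one seed and differ by U12A, and the second pair share another and differ by A12C, counted from 1 at the 5′ end. The gene of miR-10a, Mir10a, lies in HoxB just upstream of Hoxb4, with the mature miRNA at chr11:96317186-96317208. Mir10a had 24 counts in untreated 2, 15 in untreated 3, 20 in gland 1, 5 in DMAG 2, 4 in STV 1 and at most 2 in every other library. These are reads over the gene, which cannot tell the mature miRNA from a longer transcript across it. Mir10b and the Mir196 genes had at most 5 counts in any library.

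Library totals ran from 39921388 to 56887708 counts. Values are CPM, the counts of a gene relative to the total of its library, corrected by a TMM factor that was 0.493 in gland 2 and 0.999 to 1.12 elsewhere, so 3 counts, the floor of detection used here, equalled 0.0587 to 0.107 CPM. Of all values from 1 to 20 in the table, 73.7% were even, and 86.5% of those of Hox genes, so both reads of a pair seem to have been counted and 3 counts may stand for fewer fragments. The luminal epithelial markers (8 of 8 listed genes, among them Krt8 and Epcam) summed to 1631 to 3120 CPM in tumors and 2108 to 2859 CPM in glands. In bulk tissue, fewer cells of a type and less RNA per cell cannot be told apart.

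Of the 39 Hox genes, 8 had 0 counts in every library, 3 more never passed 3 counts, and 28 passed 3 counts in at least 1 library. The 8 silent genes were Hoxa11, Hoxb13, Hoxc12, Hoxc13, Hoxd1, Hoxd11, Hoxd12 and Hoxd13. All 9 members of paralog groups 11 to 13, which act in the tail, limb ends and genital region, were at or under 2 counts in every library. A count filter over the tumors kept 24 genes for testing: 9 of 12 anterior, 11 of 11 central and 4 of 16 posterior ones. Over the 11 tumors, anterior genes gave a median of 51.6% of all Hox counts and central genes 45.5%.

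**Figure D1:**
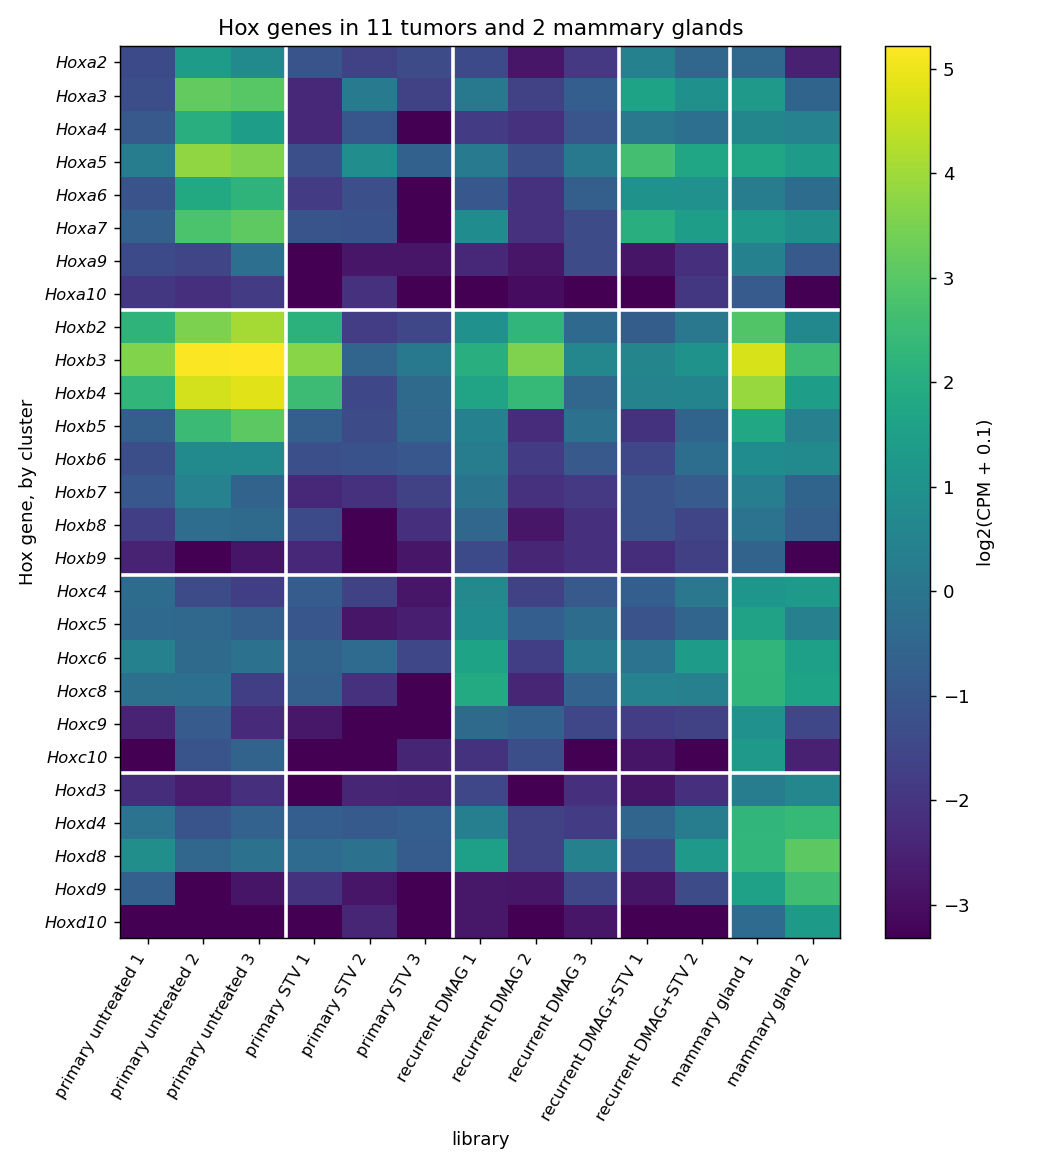
Levels of 27 of the 28 Hox genes that passed 3 counts in at least 1 library, as log2(CPM + 0.1), with genes in rows by cluster and libraries in columns by group. Hoxb2, Hoxb3 and Hoxb4 are bright in untreated 1 to 3, STV 1, DMAG 2 and gland 1, Hoxa2 to Hoxa7 in untreated 2, untreated 3 and both DMAG+STV tumors, and HoxD genes in both glands.

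Per kilobase of exon, the highest mean over the 11 tumors was that of Hoxb4, 2.70 CPM per kb, followed by Hoxb3 at 2.56 and Hoxa5 at 1.99. The highest members of the other clusters were lower, Hoxc6 at 0.449 and Hoxd8 at 0.396 CPM per kb. Of the exon bases of Hoxb3, 52.9%, and of those of Hoxb2, 27.3%, also lie in the antisense gene Hoxb3os. The strand setting of the counting is not given in the sources used here, so sense and antisense reads cannot be told apart there.

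All Hox counts together made up 129 and 147 CPM of the unscaled library total in untreated 2 and untreated 3. They made up 6.18 to 35.4 CPM in the other 9 tumors, 115 in gland 1 and 26.6 in gland 2. The single genes also spread widely: the SD of log2 CPM over the 11 tumors had a median of 1.47 over the 24 Hox genes and 0.37 over all 16870 genes tested. Hox genes were mostly low, and these medians are not matched on level.

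Hoxb2, Hoxb3 and Hoxb4, adjacent anterior genes known from the hindbrain, neck and blood stem cells, were high or low together. Hoxb4 stood at 4.86, 24.6 and 28.8 CPM in untreated 1 to 3, at 5.64, 0.261 and 0.675 CPM in STV 1 to 3, at 3.06, 5.18 and 0.609 CPM in DMAG 1 to 3 and at 1.31 and 1.35 CPM in the DMAG+STV tumors. The glands had 14.9 and 2.57 CPM. The 5 highest tumors for this gene were thus all of the untreated group, 1 of 3 STV tumors and 1 of 3 DMAG tumors, and the STV and DMAG groups each held both high and low tumors.

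Hoxb3 had 12.1, 35.5 and 37.2 CPM in untreated 1 to 3, 12.9, 0.587 and 0.991 CPM in STV 1 to 3, 4.01, 11.8 and 1.45 CPM in DMAG 1 to 3, 1.37 and 1.98 CPM in DMAG+STV, and 25.7 and 5.67 CPM in the glands. Hoxb2 had 4.60, 11.6 and 16.8 CPM in untreated 1 to 3, 4.37, 0.196 and 0.253 CPM in STV 1 to 3, 1.90, 4.82 and 0.651 CPM in DMAG 1 to 3, 0.469 and 0.978 CPM in DMAG+STV, and 7.31 and 1.5 CPM in the glands. The same 5 tumors were the highest for each of the 3 genes. STV 1 and DMAG 2 stood with the untreated tumors, and the other STV and DMAG tumors and both DMAG+STV tumors lay below them.

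Further along HoxB this order broke off. Hoxb5, a central gene of lung and neural crest development, was high in untreated 2 and 3 alone among tumors, at 5.58 and 8.32 CPM, and 0.112 to 1.25 CPM in the other 9. Hoxb4 had 17.5 counts for each count of Hoxb6, a gene of the chest region, in STV 1 and 29 in DMAG 2, and between 15.3 and 18.4 in the untreated tumors. In the 6 other tumors that ratio was 0.75 to 5.15, and it was 8.92 and 1.64 in the glands.

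**Figure D2:**
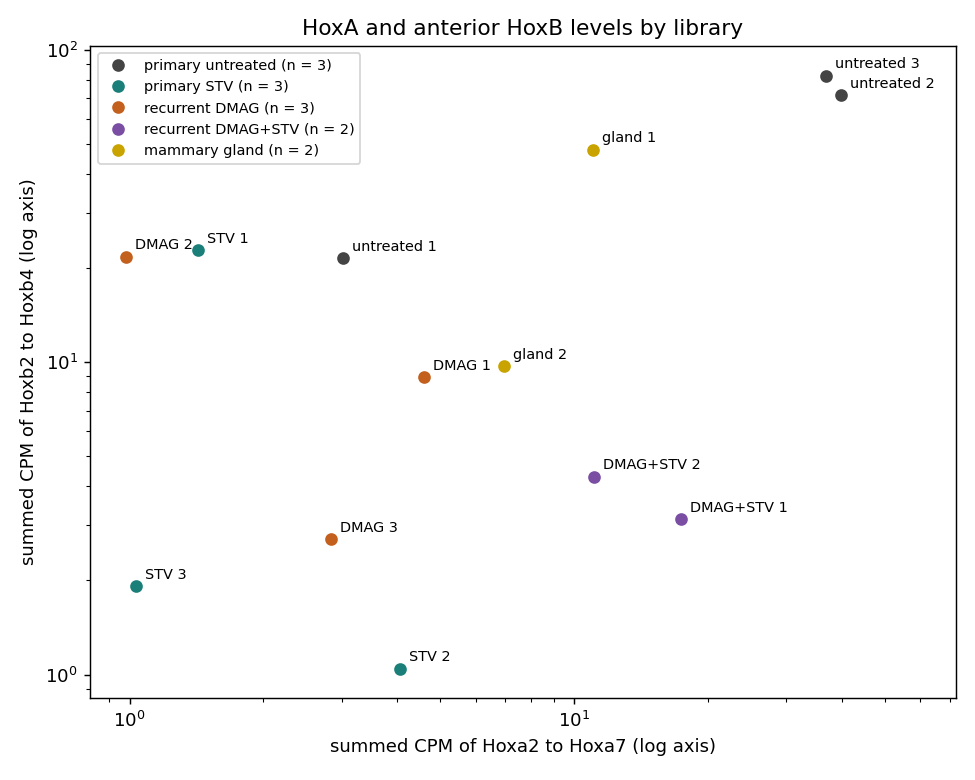
Summed CPM of Hoxa2 to Hoxa7 (x) against that of Hoxb2 to Hoxb4 (y), both on log axes, with 1 point per library coloured by group. Untreated 2 and 3 are high on both axes, STV 1, DMAG 2 and untreated 1 sit at 21.6 to 22.9 CPM in y but at 0.983 to 3.03 CPM in x, and the DMAG+STV tumors have the reverse, 11.1 and 17.4 CPM in x against 3.15 and 4.30 CPM in y.

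The HoxA genes from Hoxa2 to Hoxa7 ranked the tumors in another order. Hoxa5, which acts in lung and breast epithelium and is often silenced in breast cancer, stood at 1.13, 13.9 and 11.7 CPM in untreated 1 to 3 and at 6.18 and 3.26 CPM in DMAG+STV. It had 0.322, 1.74 and 0.527 CPM in STV 1 to 3, 1.04, 0.313 and 1.01 CPM in DMAG 1 to 3, and 3.15 and 2.50 CPM in the glands. The 4 highest tumors were untreated 2, untreated 3 and both DMAG+STV tumors, and untreated 1 lay among the low ones.

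Hoxa7, a central gene of trunk vertebrae, had 0.518, 6.93 and 8.50 CPM in untreated 1 to 3, 0.368, 0.348 and 0 CPM in STV 1 to 3, 1.69, 0.134 and 0.294 CPM in DMAG 1 to 3, 4.01 and 2.65 CPM in DMAG+STV, and 2.32 and 1.82 CPM in the glands. Hoxa3, which is needed for thymus and parathyroid, had 0.319, 8.99 and 7.94 CPM in untreated 1 to 3, 0.0921, 1.02 and 0.211 CPM in STV 1 to 3, 0.996, 0.223 and 0.483 CPM in DMAG 1 to 3, 3.01 and 1.85 CPM in DMAG+STV, and 2.38 and 0.571 CPM in the glands. Both had the same 4 highest tumors as Hoxa5.

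Hoxa6, the central neighbor of Hoxa5 and Hoxa7, had 0.358, 3.57 and 4.57 CPM in untreated 1 to 3, 0.184, 0.326 and 0 CPM in STV 1 to 3, 0.394, 0.134 and 0.504 CPM in DMAG 1 to 3, 2.01 and 1.92 CPM in DMAG+STV, and 1.09 and 0.714 CPM in the glands. Hoxa4 had 0.418, 3.97 and 2.61 CPM in untreated 1 to 3, 0.0921, 0.392 and 0 CPM in STV 1 to 3, 0.185, 0.134 and 0.378 CPM in DMAG 1 to 3, 0.958 and 0.775 CPM in DMAG+STV, and 1.41 and 1.28 CPM in the glands. For both genes untreated 2, untreated 3 and both DMAG+STV tumors were again the 4 highest of the 11 tumors.

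Beyond Hoxa7 the cluster was close to silent in tumors: Hoxa9 reached at most 0.762 CPM and Hoxa10 at most 0.180 CPM.

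HoxC had another order, led by DMAG 1. DMAG 1 was also the highest tumor in 2 of the 3 HoxD genes tested in tumors, Hoxd9 being highest in untreated 1. Of the 6 HoxC genes tested in tumors, 5 had their highest tumor value in DMAG 1, and the exception, Hoxc10, a posterior gene of the lumbar region and hindlimb, peaked in untreated 3. Hoxc8, a central gene long tied to limb-level spinal cord and cartilage, had 0.796, 0.774 and 0.200 CPM in untreated 1 to 3, 0.507, 0.131 and 0 CPM in STV 1 to 3, 3.61, 0.0893 and 0.546 CPM in DMAG 1 to 3, 1.29 and 1.20 CPM in DMAG+STV, and 4.69 and 3.0 CPM in the glands. Hoxc6 had 1.25, 0.673 and 0.822 CPM in untreated 1 to 3, 0.553, 0.696 and 0.253 CPM in STV 1 to 3, 2.99, 0.201 and 1.07 CPM in DMAG 1 to 3, 0.860 and 2.53 CPM in DMAG+STV, and 4.83 and 2.71 CPM in the glands. In both genes the 3 DMAG tumors spanned most of the range seen in all tumors.

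Hoxc10 had 0, 0.367 and 0.561 CPM in untreated 1 to 3, 0, 0 and 0.0844 CPM in STV 1 to 3, 0.139, 0.313 and 0 CPM in DMAG 1 to 3, 0.0391 and 0 CPM in DMAG+STV, and 2.32 and 0.0714 CPM in the glands. It was thus at 0 in 5 of 11 tumors, and the glands differed from each other more than the tumors did. Hoxc5 and Hoxc10 share 166 exon bases.

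DMAG 1 also had the highest summed level of mesenchymal markers (12 of 12 listed, among them Col1a1 and Pdgfra), 6935 CPM, against 361 to 2299 CPM in the other 10 tumors and 2745 and 3195 CPM in the glands. The lowest tumor on that list, STV 3, at 361 CPM with Lum at 0, had 0 counts of Hoxc8. The part of stromal cells in the Hox levels was not tested.

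**Figure D3:**
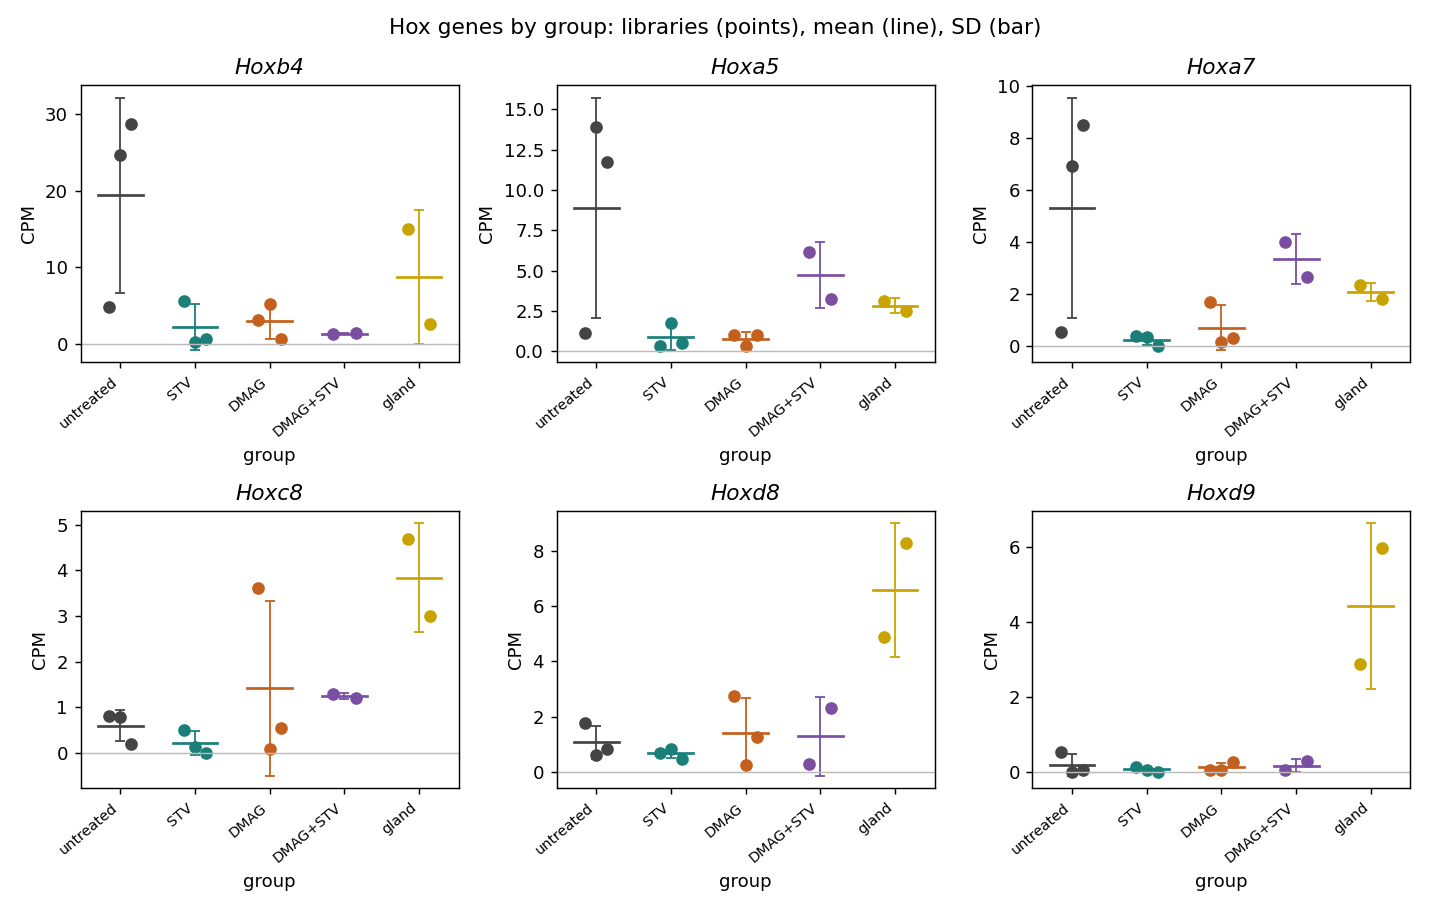
CPM of 6 Hox genes by group, with 1 point per library, a line at the group mean and a bar of 1 SD (n = 3 per tumor group, 2 for DMAG+STV and glands). Within the untreated group Hoxb4, Hoxa5 and Hoxa7 are far apart, with untreated 1 lowest, and for Hoxd8 and Hoxd9 both glands lie above every tumor.

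The shares of the Hox counts put the same pattern in terms of body axis. Anterior genes gave 37.4 to 87.9% of the Hox counts of a tumor, with 3 untreated tumors at 70.7 to 73.1%, STV 1 at 84.5% and DMAG 2 at 87.9%, and the other 6 tumors at 37.4 to 51.6%. Hoxb2, Hoxb3 and Hoxb4 alone gave 79.03% in STV 1, 84.6% in DMAG 2 and 55.6 to 64.6% in the untreated tumors, against 11.7 to 32.6% in the other 6. Central genes gave 60.0% in DMAG+STV 1, the highest share, and 7.99% in DMAG 2, the lowest.

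Posterior genes gave 0.916% (95% Wilson interval 0.709 to 1.18) of Hox counts in untreated 2, the lowest tumor, and 7.65% (5.79 to 10.1) in DMAG 3, the highest, with a median of 3.34% over the tumors. Gland 1 had 9.87% (9.08 to 10.7) and gland 2 17.0% (15.2 to 19.0). All 11 tumors lay below both glands. Of the 257 posterior counts of gland 2, Hoxd9 gave 168 and Hoxd10 68, while Hoxa9 had 12, Hoxc9 7 and Hoxc10 2. The posterior share of gland 2 thus came mostly from HoxD genes. In gland 1, with 498 posterior counts, Hoxd9 had 142, Hoxc10 115, Hoxc9 93, Hoxa9 62 and Hoxd10 34. These intervals cover counting error only and are too narrow where both reads of a pair were counted.

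**Figure D4:**
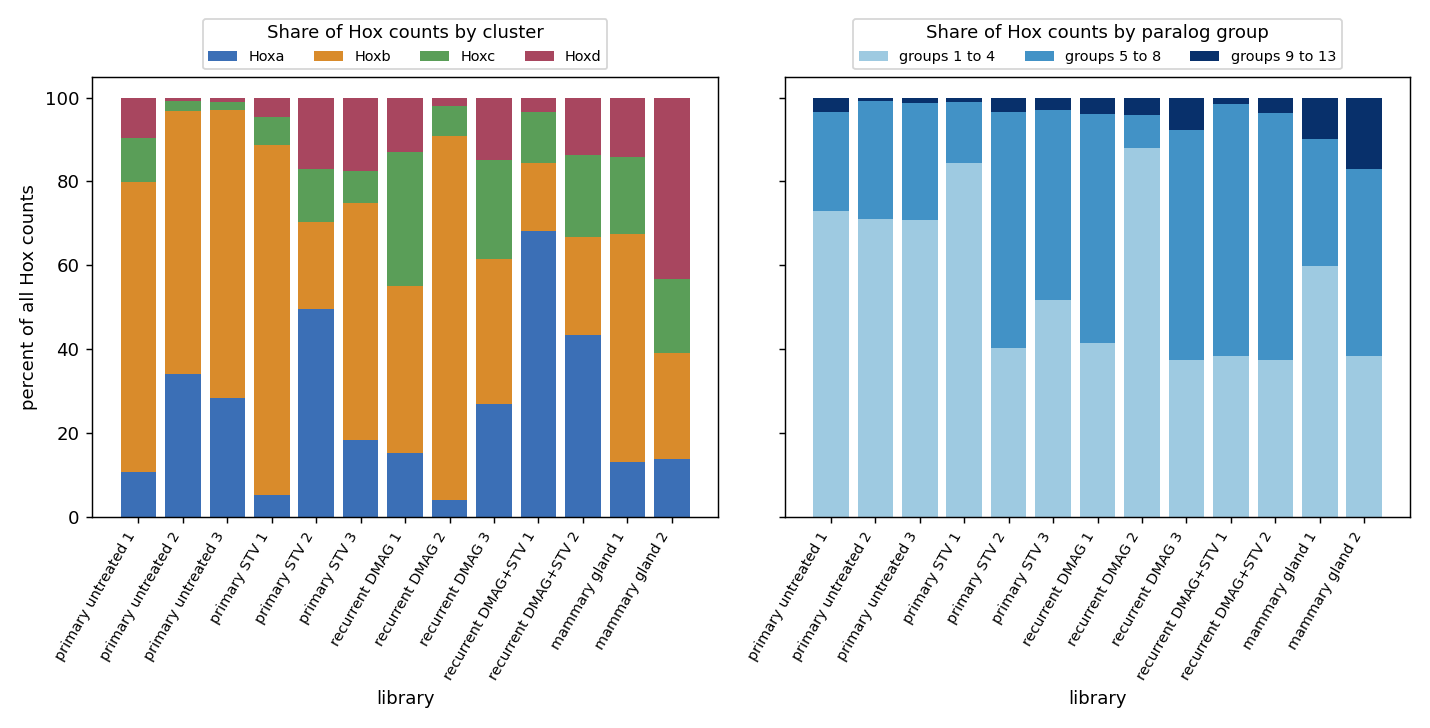
Percent of all Hox counts in each library by cluster (left) and by paralog group (right), as stacked bars that start at 0 and sum to 100. The HoxB share runs from 16.3% in DMAG+STV 1 to 86.8% in DMAG 2 among tumors, the HoxA share from 4.08% in DMAG 2 to 68.2% in DMAG+STV 1, and gland 2 has the largest HoxD share, 43.4%.

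Whether Hox levels separated the tumors by treatment was asked first by the share of variance that lies between the 4 treatment groups. Over the 24 Hox genes its median was 54.0%, against 34.6% over all 16870 genes tested. The share was 50.2 to 70.8% for HoxA genes and 4.71 to 22.3% for the HoxD genes Hoxd4, Hoxd8 and Hoxd9. These 3 HoxD genes thus varied mostly within groups, and Hoxd9 was at or under 3 counts in 7 of 11 tumors.

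By the whole Hox profile, 5 of 11 tumors had their nearest neighbor in their own group, and by all genes 1 of 11. The 5 were untreated 2 and untreated 3, each other's nearest, both DMAG+STV tumors, likewise, and STV 3. Untreated 1 was nearest to STV 1 and STV 1 to untreated 1, DMAG 2 to STV 1, and DMAG 1 to DMAG+STV 2. The mean distance was 1.84 (root mean square, log2 CPM) for the 10 pairs of tumors from one group and 2.28 for the 45 pairs from different groups, and 0.951 and 0.974 over all genes.

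In the tests across all genes (edgeR quasi-likelihood, Benjamini-Hochberg adjustment), 0 of 24 Hox genes passed an adjusted p of 0.05 in any of the comparisons between tumor groups, where 0% of all genes did. For any difference among the 4 groups, 13 Hox genes had an unadjusted p under 0.05, where 8.54% of all genes did, and the smallest adjusted p was 0.518, for Hoxa5. DESeq2 called 8 Hox genes in this comparison (Hoxa2 to Hoxa6, Hoxb4, Hoxb5 and Hoxc9), where it called 3.33% of all genes, and limma voom called 0. DESeq2 gave an adjusted p to 21 of the 24 Hox genes there. The 13 became 6 without untreated 2, 4 without untreated 3 and 8 without DMAG+STV 1. Neighboring genes of HoxA, and those of HoxB, were often high or low in the same tumors. Hox genes were therefore not independent observations in this count or in those below.

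In primary STV against primary untreated tumors, all 24 fitted differences were negative, with a median of -2.67 (log2) against -0.03 over all genes. Of these, 14 had an unadjusted p under 0.05, all lower under stavudine, where 3.76% of all genes did, and 0 passed the adjusted threshold by edgeR, DESeq2 (which called 0.102% of all genes) or limma voom. The count was 7 without untreated 2, 9 without STV 2 and 16 without untreated 1. The difference was -4.48 ± 1.42 (SE) for Hoxa7 and -3.16 ± 1.17 for Hoxb4, each with an adjusted p of 1.00. For Hoxb4 the groups overlapped, since STV 1 (5.64 CPM) exceeded untreated 1 (4.86 CPM).

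In recurrent DMAG against primary untreated tumors, which share the untreated tumors with that comparison, 7 Hox genes had an unadjusted p under 0.05, all lower, where 9.69% of all genes did. They were Hoxa2 to Hoxa6, Hoxb4 and Hoxb5. Hoxa5 differed by -3.51 ± 0.98 (adjusted p = 0.509), and its highest DMAG value, 1.04 CPM, lay just under the lowest untreated one, 1.13 CPM. DESeq2 called 1 Hox gene, Hoxa5, where it called 0.365% of all genes, and limma voom called 0. The count of 7 fell to 4 without untreated 2, untreated 3 or DMAG 2, and rose to 10 without DMAG 1.

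Under stavudine, recurrent DMAG+STV against primary STV tumors gave 5 Hox genes with an unadjusted p under 0.05, all higher, where 10.1% of all genes did. Among them were Hoxa5, Hoxa6, Hoxa7 and Hoxc9. Hoxa7 differed by 3.79 ± 1.44 (adjusted p = 0.461). The count fell to 2 without STV 3 or DMAG+STV 1 and rose to 7 without untreated 1 or DMAG 1. No Hox gene was called by edgeR, DESeq2 (which called 2.1% of all genes) or limma voom. DESeq2 gave an adjusted p to 20 of the 24 Hox genes there.

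Between the recurrent groups, DMAG+STV against DMAG gave 2 Hox genes with an unadjusted p under 0.05, Hoxa2 and Hoxa5, both higher, where 7.84% of all genes did. No Hox gene passed the adjusted threshold by any of the 3 tools, and DESeq2 called 1.92% of all genes. DESeq2 gave an adjusted p to only 14 of the 24 Hox genes there. The count was 0 without DMAG 2 or DMAG+STV 1 and 4 without untreated 1 or DMAG 1.

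The difference of the recurrence effect with and without stavudine was tested as an interaction. There, 7 of 24 Hox genes had an unadjusted p under 0.05, Hoxa5, Hoxa6 and Hoxa7 among them, where 7.84% of all genes did. For Hoxa5 the interaction was 5.96 ± 1.39 on the log2 scale (adjusted p = 0.435). Hoxa2, which patterns the hindbrain and the second pharyngeal arch, had 0.279, 2.55 and 1.54 CPM in untreated 1 to 3, 0.278, 0.0447 and 0.168 CPM in DMAG 1 to 3, 0.368, 0.218 and 0.295 CPM in STV 1 to 3, 1.25 and 0.612 CPM in DMAG+STV, and 0.646 and 0.0714 CPM in the glands. Its highest DMAG tumor lay only just below untreated 1. For Hoxa2, Hoxa4 and Hoxa5, every DMAG tumor was below every untreated one and every DMAG+STV tumor above every STV one, an opposite move without overlap that 2.04% of all genes showed in either direction. With edgeR and limma voom 0 Hox genes passed the adjusted threshold, where 0% of all genes did, and with DESeq2 6 did (Hoxa2 to Hoxa7), where 1.18% of all genes did. DESeq2 gave an adjusted p to 21 of the 24 Hox genes there. The count of 7 rose to 12 without STV 1.

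Against the mammary glands, tumors were lower in Hoxd4, Hoxd8, Hoxd9, Hoxa9, Hoxc5 and Hoxc9 (edgeR, adjusted p under 0.05). These were 6 of the 24 Hox genes that passed the count filter over the tumors as well, and 8.44% of such genes were called lower. In 4 of the 24, every tumor lay below both glands, where 6.99% of such genes did so: Hoxc4, Hoxd4, Hoxd8 and Hoxd9. Hoxc4 was not called (adjusted p = 0.0662). It had 64 counts in gland 2 and 65 in DMAG 1, so its order there rests on the TMM factor of gland 2, 0.493. The test on all 13 libraries took in 3 more Hox genes, Hoxb9, Hoxd3 and Hoxd10, which passed the filter only with the glands, where they were high. Hoxd3 and Hoxd10 were called lower in tumors and lay below both glands in every tumor, but the filter had fixed that direction, so they are a description. With them the counts were 8 of 27 called, where 10.4% of all genes were called and 8.81% were called lower, and 6 of 27 below both glands, where 7.37% were.

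Hoxd4, an anterior gene of the neck vertebrae, had 4.85 and 5.21 CPM in the glands against 0.856, 0.367 and 0.541 CPM in untreated 1 to 3, 0.483, 0.435 and 0.485 CPM in STV 1 to 3, 1.18, 0.223 and 0.189 CPM in DMAG 1 to 3 and 0.587 and 1.10 CPM in DMAG+STV. Every tumor lay below both glands, with a mean of 0.586 ± 0.328 CPM (SD, n = 11). The gene differed by -3.08 ± 0.50 (SE, adjusted p = 0.00582) and remained called in 22 of 23 alternatives, the exception being the untreated tumors alone against the glands. Hoxd8 had 4.89 and 8.31 CPM in the glands, and 1.75, 0.611 and 0.802 CPM in untreated 1 to 3, 0.691, 0.827 and 0.464 CPM in STV 1 to 3, 2.73, 0.223 and 1.26 CPM in DMAG 1 to 3 and 0.274 and 2.30 CPM in DMAG+STV (-2.64 ± 0.69, adjusted p = 0.0373). Hoxd3, whose exons share 388 bases with those of Hoxd4, had 1.11 and 1.46 CPM in the glands, and 0.119, 0.0611 and 0.120 CPM in untreated 1 to 3, 0, 0.0870 and 0.0844 CPM in STV 1 to 3, 0.255, 0 and 0.126 CPM in DMAG 1 to 3 and 0.0391 and 0.122 CPM in DMAG+STV (-3.83 ± 0.79, adjusted p = 0.0148). In Hoxd8, too, the glands lay above every tumor. They did so in Hoxd3 as well, but the filter had fixed that direction, so its values are a description.

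The posterior genes Hoxd9 and Hoxd10, active in the lumbar region and the limbs, were at or near the floor in tumors. Hoxd9 had 2.87 and 5.99 CPM in the glands, and 0.518, 0 and 0.0401 CPM in untreated 1 to 3, 0.138, 0.0435 and 0 CPM in STV 1 to 3, 0.0463, 0.0447 and 0.252 CPM in DMAG 1 to 3 and 0.0391 and 0.285 CPM in DMAG+STV. Its difference was -5.17 ± 0.99 (adjusted p = 0.0110), with 7 of 11 tumors at or under 3 counts. Hoxd10 had 34 and 68 counts in the glands (0.687 and 2.43 CPM) and 8 counts over all 11 tumors, with 0.0870 CPM in STV 2, 0.0463 CPM in DMAG 1, 0.0420 CPM in DMAG 3 and 0 in the other 8. Its fitted difference of -7.38 ± 1.03 (adjusted p = 0.006995) therefore depends on how low counts are smoothed. The filter had also fixed its direction, so this difference is a description.

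The remaining called genes were closer to the tumors in at least one gland. Hoxa9, a posterior gene that drives leukemias when overexpressed, had 1.25 and 0.428 CPM in the glands, and 0.279, 0.245 and 0.762 CPM in untreated 1 to 3, 0, 0.0435 and 0.0422 CPM in STV 1 to 3, 0.0926, 0.0447 and 0.294 CPM in DMAG 1 to 3 and 0.0391 and 0.122 CPM in DMAG+STV (-2.90 ± 0.71, adjusted p = 0.0292). Hoxc9, a posterior gene of the chest, had 1.88 and 0.250 CPM in the glands, and 0.0796, 0.448 and 0.1 CPM in untreated 1 to 3, 0.0460, 0 and 0 CPM in STV 1 to 3, 0.671, 0.536 and 0.252 CPM in DMAG 1 to 3 and 0.196 and 0.224 CPM in DMAG+STV (-2.94 ± 0.78, adjusted p = 0.0393). Hoxc5 had 2.93 and 1.21 CPM in the glands, and 0.657, 0.632 and 0.501 CPM in untreated 1 to 3, 0.391, 0.0435 and 0.0633 CPM in STV 1 to 3, 1.67, 0.491 and 0.714 CPM in DMAG 1 to 3 and 0.352 and 0.591 CPM in DMAG+STV (-2.17 ± 0.61, adjusted p = 0.0486). For each of the 3 genes the highest tumor lay above gland 2.

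**Figure D5:**
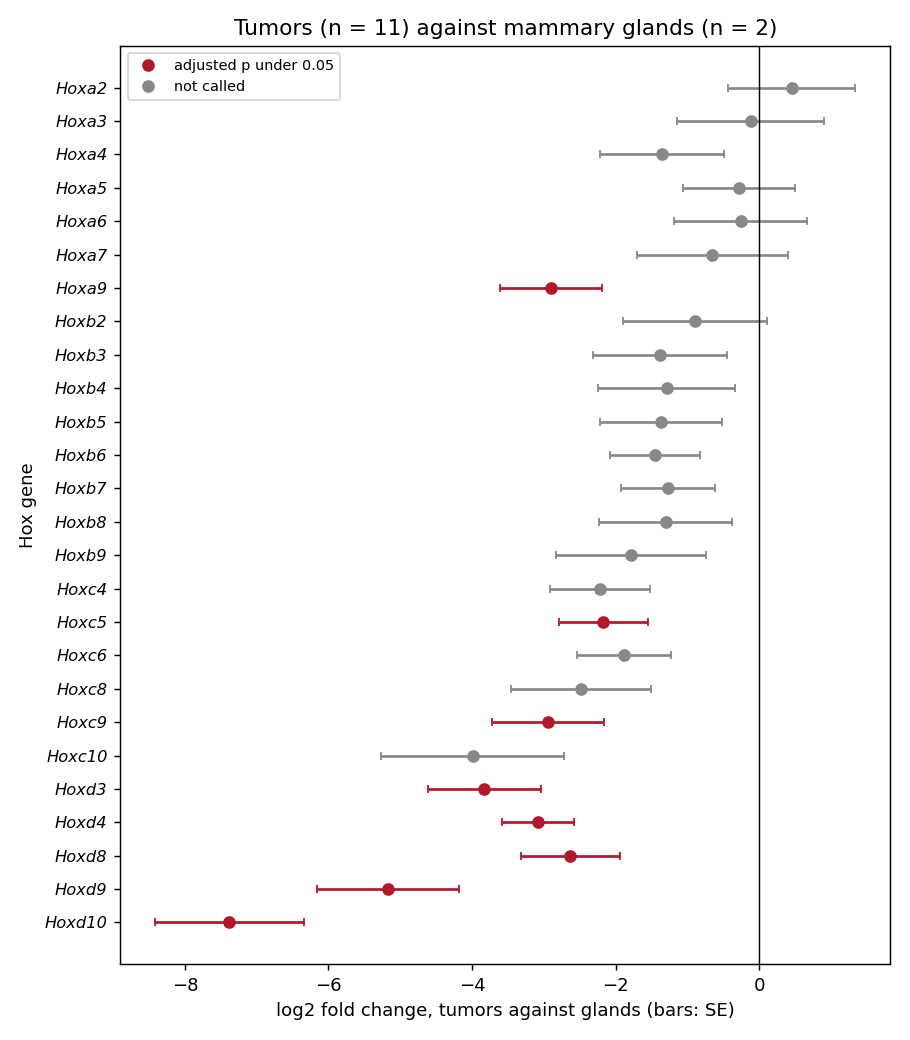
Log2 fold change of tumors (n = 11, mean of 4 group means) against mammary glands (n = 2) for 26 of the 27 Hox genes in cluster order, with bars of 1 SE and the 8 called genes in red. The values run from 0.45 for Hoxa2 to -7.38 for Hoxd10, and all 5 HoxD genes are called, Hoxd3 and Hoxd10 having passed the filter only with the glands.

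The anterior and central genes of HoxA and HoxB were not called against glands, Hoxa5 differing by -0.29 ± 0.78 (adjusted p = 0.828) and Hoxb4 by -1.29 ± 0.96 (adjusted p = 0.386). Untreated 2 and 3 lay above both glands in both genes. The number of called genes rested on single libraries, and so did the share of all genes called. It was 1 without gland 2, where 3.01% of all genes were called, and 5 without gland 1, where 24.2% were. It was 5 without untreated 3, DMAG 3, STV 2 or STV 3, where 6.88 to 7.58% of all genes were called, and 4 without DMAG+STV 1, where 6.56% were. Without the 3 tumors richest in skeletal muscle RNA (DMAG+STV 2, untreated 1 and DMAG 3) it was 2, where 1.61% of all genes were called. Without scaling factors it was 3, where 2.85% were called, and the median of all genes moved from -0.02 to 0.37.

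The tissues differed in makeup. Adipocyte markers (10 of 10 listed, among them Adipoq) summed to 18.4 to 184 CPM in tumors and 1066 and 1346 CPM in glands, with Adipoq at 0 in STV 3. Basal and myoepithelial markers (8 listed, among them Krt14 and Krt5) summed to 44.4 to 361 CPM in tumors and 414 and 1083 CPM in glands. Endothelial markers summed to 66.1 to 283 CPM in tumors and 285 and 309 CPM in glands. Lymphocyte and lymph node markers were at 230 CPM in gland 1 and 3.96 to 6.10 CPM elsewhere, and skeletal muscle markers at 1890 CPM in gland 2 and 7.05 CPM in gland 1, with 0.782 to 1776 CPM in tumors. Skin and hair markers summed to 11.8 to 25.3 CPM in all libraries, with Krt2 and Krt27 at 0 in all 13. The part of these cell types in the Hox difference was not tested.

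Genes that mark the fore- and hindlimb levels of the body were near the floor. Tbx5, which marks the forelimb level, had 0 to 17 counts in tumors (0 to 0.339 CPM) and 16 and 8 in the glands. Pitx1, of the hindlimb level, had 0 to 12 counts in tumors and 8 and 6 in the glands, and Tbx4, of the same level, passed 3 counts in 4 of 11 tumors and was left out. Of 4 relations across the 11 tumors the strongest was that of Pitx1 with Hoxa5 (r = 0.54, permutation p = 0.0773, adjusted p = 0.225, Spearman rho = 0.54, permutation p = 0.0930, adjusted p = 0.260). Without the 2 tumors farthest from the median of Pitx1, r was 0.37. The relation of Tbx5 with Hoxc10 was -0.51 (permutation p = 0.112, adjusted p = 0.225, rho = -0.49, permutation p = 0.130, adjusted p = 0.260) and -0.48 without the farthest 2. Tbx5 with Hoxa5 gave 0.19 (permutation p = 0.571, adjusted p = 0.642, rho = 0.18, permutation p = 0.592, adjusted p = 0.789), which became -0.56 without the farthest 2. Pitx1 with Hoxc10 gave 0.18 (permutation p = 0.642, adjusted p = 0.642, rho = 0.07, permutation p = 0.853, adjusted p = 0.853), which became -0.05.

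Of 22 partners and regulators of Hox proteins, 21 were tested. Between tumor groups 0 were called by edgeR. At most 3 had an unadjusted p under 0.05, in the interaction, where 7.84% of all genes did. Against glands, 1 of 21 was called, where 10.4% of all genes were called and 8.81% were called lower. It was Meis2, a cofactor that prolongs Hox binding to DNA, at -2.44 ± 0.65 (adjusted p = 0.0394). Meis2 had 7.19 and 2.50 CPM in the glands and 0.180 to 2.45 CPM in tumors. It had 70 counts in gland 2, 106 in DMAG 1 and 100 in DMAG+STV 2. Its order there therefore rests on the TMM factor of gland 2, 0.493. Of the 12 trunk patterning genes, 10 were tested and 0 called by edgeR in any comparison. At most 2 had an unadjusted p under 0.05 between tumor groups, in the interaction. Against glands 3 did, where 5066 of 17135 genes did. Tbx15, a gene of trunk mesoderm and brown fat, stood at 137 CPM in DMAG+STV 2, against 0.443 to 9.66 CPM in the other tumors and 8.87 and 8.03 CPM in the glands.

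The labels name no gland for any tumor and no body position for the mammary glands. Whether the Hox differences between tumors followed gland position was therefore not tested, and position and treatment group cannot be told apart in these libraries. Nor can position be told apart from tumor against gland in the differences from the glands.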

How the data were processed

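Total RNA of 11 tumors and 2 mammary glands was sequenced after removal of ribosomal RNA. The authors demultiplexed the reads with bcl2fastq 2.20, aligned them to GRCm38 (mm10) with STAR and assigned them to genes by featureCounts of Subread 1.6.2 (tools and versions from the submitters' processing notes). The deposited table holds raw counts per gene for each library, not normalized. The strand setting and the treatment of multi-mapping reads are not given in the sources used here. No replicate pair agreed within sampling noise, and 0 columns were left unmapped.

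Counts were scaled by TMM (edgeR 4.0.16, R 4.3.3) and filtered with filterByExpr, and 16870 genes were fitted over the tumors and 17135 over all 13 libraries. Groups were compared with the edgeR quasi-likelihood test, with Benjamini-Hochberg adjustment over all genes and a threshold of 0.05. DESeq2 1.42.0 and limma voom (limma 3.58.1) served as alternatives. DESeq2 gave no adjusted p to some genes, and its shares of all genes cover those that had one. The tumor side of the comparison with glands was the mean of the 4 group means. Log2 CPM used a prior count of 2. Correlations used two-sided permutation tests with 100000 resamples (scipy 1.17.1). The scripts were checked on simulated data.

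The 39 members and the gene lists were chosen with earlier results of these data known. Named with values in every library were genes called in a comparison, the highest member of each cluster per kb, the 8 with the largest SD over the tumors, and Hoxa5, Hoxc8, Hoxc9, Hoxc10, Hoxd9 and Hoxd10. From the partner list, called genes were named. Hoxa2, Hoxb5, Hoxb6, Hoxb9, Hoxa10 and the noncoding genes of the clusters were described after their values were seen, as was Tbx15. The interaction, the count over genes that passed both filters, the halved counts, the library totals without scaling factors and the omission of the 3 muscle-rich tumors were added after seeing the data. Coordinates are GRCm38, 1-based. The values of 1 member are not reported here, and that member stays in the counts and medians over all Hox genes.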

Additional observations from a re-analysis of the deposited data

Results flagged for a closer look

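In 3 genes of the HoxA cluster the fitted recurrence effect had opposite signs with and without stavudine, and the groups compared did not overlap. For Hoxa5 the log2 difference was -3.51 ± 0.98 (SE) for DMAG against untreated tumors and 2.45 ± 0.99 for DMAG+STV against STV tumors, an interaction of 5.96 ± 1.39 (adjusted p = 0.435). The interaction was 4.81 ± 1.22 for Hoxa2 (adjusted p = 0.435) and 5.73 ± 1.64 for Hoxa4 (adjusted p = 0.471). In each of the 3 genes all DMAG tumors lay below all untreated ones and both DMAG+STV tumors above all STV ones. Of all genes, 2.04% showed such an opposite move without overlap, in either direction. In each of the 3, the highest DMAG tumor lay only just below untreated 1. The test of the difference itself missed the adjusted threshold in edgeR for each. In DESeq2, where 1.18% of all genes were called, all 3 passed it (adjusted p = 0.00316 for Hoxa5, 0.0247 for Hoxa2 and 0.0351 for Hoxa4). The groups held 2 or 3 libraries, too few to look for single outlying samples.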

How the results depend on the processing

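Between the tumor groups, edgeR called 0 Hox genes under every alternative run and without any single library (lowest 0, highest 0). DESeq2 called 8 for any difference among the 4 groups (3.33% of all genes called), 1 for DMAG against untreated (0.365%) and 6 for the interaction (1.18%). It gave an adjusted p to 21, 24 and 21 Hox genes in these comparisons. Against the glands the main count was 8 (10.4% of all genes called), with Hoxd3 and Hoxd10, which passed the filter only with the glands. It became 3 without scaling factors (2.85%), 0 with the untreated tumors alone (2.11%) and 2 without the 3 muscle-rich tumors (1.61%). When single libraries were left out, it ran from 1 without gland 2 (3.01%) to 12 without DMAG 1 (18.2%). The log2 difference of Hoxc10 from the glands ran from -4.88 without STV 3 to 0.077 without gland 1, where its sign turned. The cause of these changes was not tested. With the replicate number as a block, 2 Hox genes were called against the glands (2.17% of all genes) and 0 between tumor groups. The numbers gave no sign of pairing, since 2 of 15 same-numbered tumor pairs had a correlation over 0.1 (range -0.30 to 0.22). The median share of variance between groups ran from 46.9 to 66.1% without single libraries. At this depth 3 counts equalled 0.0587 to 0.107 CPM, and 11 Hox genes, 8 of them at 0, never passed 3 counts.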
